A study of Mus musculus with 26 samples.

Results

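Photoreceptor precursors of the mouse retina held one set of genes at every stage sampled from birth to postnatal day 10 that intestinal epithelium, B lineage cells and germ cell-like cells lacked or held at a lower level. It ran across the transcription factors Otx2, Crx, Rorb and Neurod1, the cone and rod genes Gnb3 and Rbp3 and neuronal genes such as Ncam1. Bcl3, Pycard, Ripk3 and H2-K1, genes of inflammation, cell death and antigen presentation, were low in all 10 libraries of sorted retinal cells. The genes were chosen from the expression table of 26 libraries by one rule: the lowest of the 10 retinal values had to exceed the highest of the other 16 values, or the reverse. Of 25146 lines with all values in place, 2546 (10.1%) were higher in every retinal library and 285 (1.13%) were lower in every retinal library. A stricter class of 25 genes (0.0994%) was absent only in retina, with every retinal value under 1 RPM (reads scaled to the library total) and every other value at least 1 RPM.

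The retinal cells were sorted from mice that carry an EGFP-BLIMP1 knock-in on both alleles (C57BL/6), so the reporter marks cells that express the transcriptional repressor BLIMP1. They formed 5 groups of 2 libraries each: reporter-positive cells at P0 (P0_PRP_GFP+), reporter-positive cells at P4 without CD73, a surface protein of rod precursors (P4_PRP_GFP+CD73-), and cells with CD73 at 3 ages (P4_PRP_CD73+, P6_PRP_CD73+ and P10_PRP_CD73+). Cells at P0 were gated on the reporter alone and the CD73+ sorts on CD73 alone. Gates can be compared at the same age only at P4, and ages at the same gate only within the CD73+ sorts. In all other comparisons of retinal groups, gate and age cannot be told apart. The other 16 libraries, also 2 per group, came from the same knock-in line for the intestine and the B lineage. They were reporter-positive EpCAM+ intestinal epithelium at E16.5 (E16.5_emIE), reporter-negative EpCAM+ epithelium at P3 and P14 (P3_IE and P14_IE), and B220+ spleen cells of mice aged 8 to 10 weeks (B cell). Such spleen cells cultured for 3 days with LPS and IL-4 gave reporter-negative CD138- blasts (Blast), reporter-positive CD138- cells (prePB) and reporter-positive CD138+ plasmablasts (PB). The last group was reporter-positive germ cell-like cells (d2 PGCLC), induced in culture with BMP4, BMP8A, SCF, LIF and EGF from a C57BL/6 and 129 line with Blimp1-mVenus, stella-ECFP and Rosa26-rtTA. The intestinal and B lineage groups thus share the homozygous knock-in with the retina, and no group lacks it other than the germ cell-like cells. Whether the 2 replicates of a group had different source animals or cultures is not in the labels; p-values here describe the spread among libraries, which may be technical.

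Photoreceptor precursors leave the cell cycle around birth and mature over the next weeks into rods and cones. OTX2 and its target CRX are homeodomain proteins that commit cells to this fate, NEUROD1 and RORB act beside them, and BLIMP1 is known in mouse retina for holding back the bipolar cell alternative. Later steps build the outer segment, a modified cilium that holds the light-detecting proteins, and the ribbon synapse that passes the signal on.

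One read was worth 0.179 to 0.387 RPM in retinal libraries and 0.166 to 0.583 RPM in the others, as read from the step between low values, so differences under about 1 RPM were not detectable. The median expressed gene sat higher in retinal libraries than in the others: over 14131 lines with at least 5 RPM in at least 2 libraries, the median difference was 0.64 on the log2(RPM + 1) scale, while over all 25146 lines, many of them near 0 throughout, it was 0. That shift was 0.12 after median-of-ratios scaling and 0 after quantile normalization. The number of genes higher in every retinal library was 1626 and 1382 under these scalings, and the number lower was 723 and 739. The higher genes made up 89.9% of all separated genes as deposited, 69.2% after median-of-ratios scaling and 65.2% after quantile normalization. Under all 3 scalings 1308 genes were higher and 262 were lower. The RPM of the 77 ribosomal protein genes, a list chosen after seeing the data, summed to 49368 to 126216 RPM in retinal libraries and 124877 to 258878 RPM in the others. Of these genes 27 were lower in every retinal library as deposited, 62 after median-of-ratios scaling and 8 after quantile normalization, and their part in the shift was not tested. In bulk samples, fewer cells of a type and less RNA per cell cannot be told apart.

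The label was checked on Otx2 and Neurod1 ahead of other genes. Otx2 (Entrez ID 18424; chromosome 14, 48656781 to 48667644, GRCm38.p6) stood at 589.5, 1319 and 2468 RPM in the lowest, the median and the highest of the 10 retinal libraries, against 0.469, 1.36 and 10.8 RPM in the others. The ranges did not overlap: the retinal values were highest in P4_PRP_GFP+CD73- and lowest in P10_PRP_CD73+, and the nearest other library was P3_IE replicate 2. Neurod1 (Entrez ID 18012; chromosome 2, 79452637 to 79456636), a basic helix-loop-helix factor needed for photoreceptor survival, stood at 1581, 1899 and 3053 RPM in retinal libraries, against 0, 2.73 and 37.0 RPM in the others. Its highest values outside the retina were in the intestine at P3 and P14, a tissue whose endocrine cells also use this factor. Markers of B cells and intestine were low in retinal libraries. The 20 B cell markers summed to 13.5 to 44.5 RPM, against 12.8 to 22555 RPM elsewhere. The 20 intestinal markers summed to 35.9 to 77.1 RPM, against 8.11 to 27847 RPM. The 19 pluripotency markers summed to 851 to 2539 RPM in retinal libraries, against 8.72 to 3983 RPM elsewhere. The retinal sum holds Otx2 itself. In the P10 libraries, where Otx2 stood at 603 and 589.5 RPM, other members of the list added to the sum. Nanog and Tdgf1, picked after their values were seen, had retinal medians of 0.210 and 0.317 RPM. They do not stand for the list, and the members that added to the sum are not named here.

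The widest gap of all belonged to Rorb (Entrez ID 225998; chromosome 19, 18930609 to 19111196), a nuclear receptor that acts in the choice of rod fate. It stood at 452, 536 and 799.9 RPM in retinal libraries, against 0, 0.548 and 1.92 RPM in the others. The gap, which is the lowest retinal minus the highest other value in log2(RPM + 1), was 7.27. Crx (Entrez ID 12951; chromosome 7, 15865947 to 15879955), the main activator of photoreceptor genes, stood at 818, 1969 and 2479 RPM in retinal libraries, against 0, 1.76 and 6.02 RPM in the others, a gap of 6.87. By group mean Rorb was lowest at P10 and Crx at P0, and neither range overlapped the other lineages. Gaps of at least 1 log2 were found for 811 higher genes, of at least 3 for 155 and of at least 6 for 10.

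**Figure D1:**
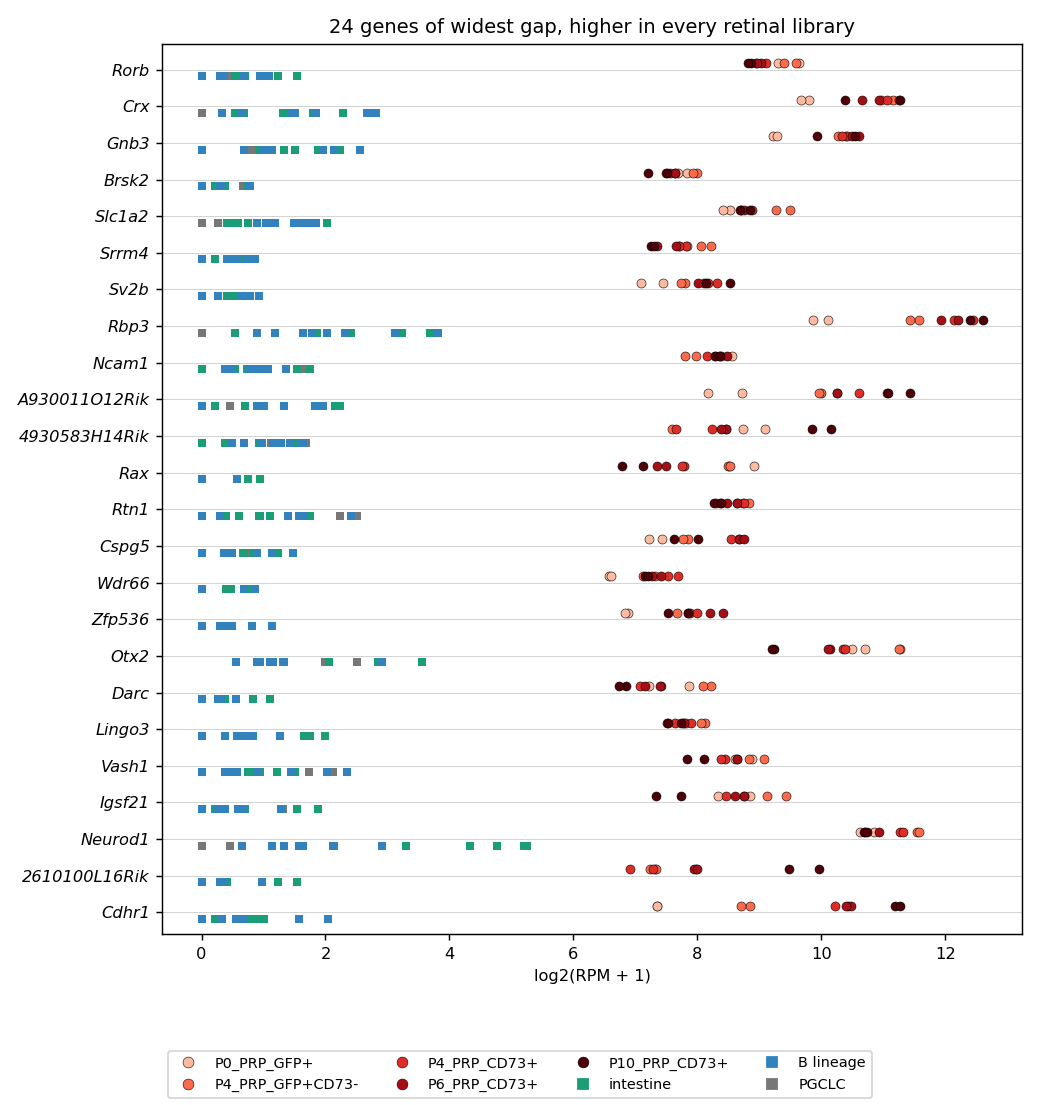
Levels in all 26 libraries, log2(RPM + 1) on the horizontal axis, of 24 of the 25 genes with the widest gap among those higher in every retinal library. Circles above each line are the 10 retinal libraries, coloured by group, and squares below are the other 16, coloured by lineage; the gap runs between 5.30 for Cdhr1 and 7.27 for Rorb.

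Of the 20 photoreceptor transcription factor genes on the list, 10 were higher in every retinal library, or 50% against 10.1% of all lines. All 10 remained so under all 3 scalings. Of the 14131 expressed lines, which hold all 20 list genes, 2444 were higher in every retinal library. That is a larger share than over all lines, so the contrast with 10.1% overstates the difference. The median difference between the retinal and other medians was 4.89 log2 over the list, against 0.64 over the 14131 expressed lines and 0 over all lines used. Besides Otx2, Crx, Neurod1 and Rorb they were Nrl, Casz1, Samd7, Samd11, Isl2 and Rxrg. Nrl, the leucine zipper factor that fixes rod identity, stood at 174, 2452 and 3670.0 RPM in retinal libraries, against 0, 1.24 and 8.85 RPM in the others. Samd7, a rod Polycomb partner, stood at 7.01, 154 and 227 RPM in retinal libraries, against 0, 0.0295 and 0.385 RPM in the others. Rxrg, a nuclear receptor of cones, was closest to the threshold with 10.8, 35.7 and 99.3 RPM in retinal libraries and 0, 0.0699 and 7.04 RPM in the others, the highest of them in d2 PGCLC replicate 2. The 10 others on the list did not separate, among them Thrb, with a retinal median of 44.9 RPM and a highest other value of 36.7, and Nr2e3, with 659 and 44.4.

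Prdm1, which encodes BLIMP1 and whose reporter was used for the sort of every lineage but not of every group, was not separated. It stood at 80.4, 281 and 502 RPM in retinal libraries, against 2.31, 37.4 and 242 RPM in the others, where PB replicate 2 was the highest. Nt5e, which encodes CD73, stood at 8.37, 241 and 396 RPM in retinal libraries and 0, 8.00 and 69.9 RPM in the others and overlapped as well.

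Of the eye field and homeobox genes, 11 of 14 were higher (78.6%), all 11 of them under all 3 scalings. These genes lay out the eye in the embryo, and several later serve progenitors or bipolar cells. Rax, an early eye field factor, stood at 109, 218 and 484 RPM in retinal libraries, against 0, 0 and 0.926 RPM in the others. Rax was highest at P0, lowest at P10 and above 100 RPM in all 10 retinal libraries. Six3 and Six6, sine oculis homeobox genes, had gaps of 4.88 and 4.33. Vax2, which patterns the ventral eye, stood at 31.6, 50.8 and 60.5 RPM in retinal libraries, against 0, 0 and 0.241 RPM in the others. Further members were Meis1, Lhx4, Lhx2, Hmx1, Pax6 and Meis2, down to a gap of 0.48 for Meis2, whose highest other value of 70.5 RPM was in d2 PGCLC replicate 1.

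Of the 20 neurogenic and neuronal factors, 6 were higher in every retinal library (30%). They were Neurod1, Neurod4, Myt1, Insm1, Bhlhe22 and Neurog2, and the 6 held under all 3 scalings. Neurod4, a proneural factor, stood at 198, 549 and 2181 RPM in retinal libraries, against 0, 0.379 and 5.38 RPM in the others. Insm1, a zinc finger repressor that acts during neuronal differentiation, stood at 290.2, 473 and 691 RPM in retinal libraries, against 0, 1.72 and 17.7 RPM in the others. No overlap was left in either, and the nearest other library was P3_IE replicate 2 for Neurod4 and P14_IE replicate 2 for Insm1. Neurog2, a proneural factor of newborn neurons, stood at 528 ± 0.544 RPM at P0, 50.8 ± 26.6 at P4 without CD73, and 30.2 ± 8.11, 20.7 ± 0.781 and 2.05 ± 0.0417 with CD73 at P4, P6 and P10 (SD, n = 2 each), and no other library passed 0.305 RPM.

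**Figure D2:**
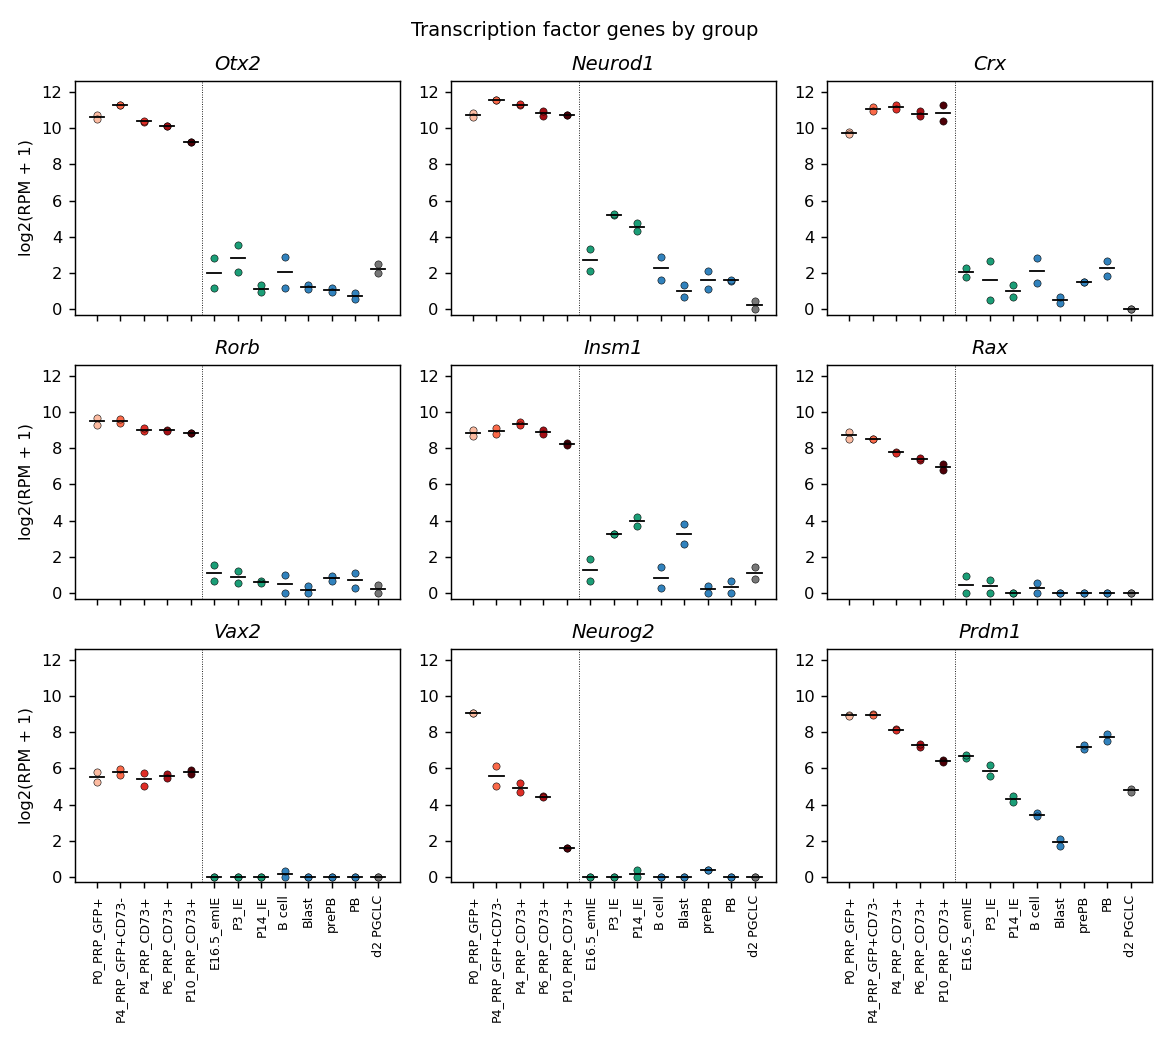
Levels of 9 transcription factor genes in log2(RPM + 1) by group, with a point per library (2 per group) and a bar at their mean; the 5 retinal groups are left of the dotted line and the 8 other groups right of it. The retinal points of Otx2, Neurod1, Crx, Rorb, Insm1, Rax, Vax2 and Neurog2 lie above all others, while those of Prdm1, at 80.4 to 502 RPM, overlap the PB libraries at up to 242 RPM.

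CRX and OTX2 bind the homeodomain core TAATCC, so the RefSeq promoters (GRCm38.p6, 250 bases before to 50 after each start) were searched for it on both strands. Promoters of genes with wide gaps are shown because they hold it, with the core or its reverse complement GGATTA in capitals.
Crx (chr7:15879906-15880205, minus strand): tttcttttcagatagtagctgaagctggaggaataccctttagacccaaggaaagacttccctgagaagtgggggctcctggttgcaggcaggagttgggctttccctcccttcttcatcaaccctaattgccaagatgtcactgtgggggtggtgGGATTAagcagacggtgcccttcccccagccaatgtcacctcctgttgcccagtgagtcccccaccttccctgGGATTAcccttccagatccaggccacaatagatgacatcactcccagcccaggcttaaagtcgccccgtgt
Otx2 (chr14:48665060-48665359, minus strand): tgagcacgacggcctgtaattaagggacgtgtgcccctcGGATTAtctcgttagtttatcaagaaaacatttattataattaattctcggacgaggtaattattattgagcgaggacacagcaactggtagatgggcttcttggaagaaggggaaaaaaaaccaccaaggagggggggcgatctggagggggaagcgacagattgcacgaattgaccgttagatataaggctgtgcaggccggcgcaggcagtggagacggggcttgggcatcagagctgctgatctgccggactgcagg
Rbp3 (chr14:33953753-33954052, plus strand): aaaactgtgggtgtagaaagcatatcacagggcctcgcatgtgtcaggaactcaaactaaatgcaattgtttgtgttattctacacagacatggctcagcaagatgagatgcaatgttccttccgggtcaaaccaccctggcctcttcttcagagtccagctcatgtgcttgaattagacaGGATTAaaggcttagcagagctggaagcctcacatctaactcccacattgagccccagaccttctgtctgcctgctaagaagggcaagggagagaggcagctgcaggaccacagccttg
Abca4 (chr3:122044210-122044509, plus strand): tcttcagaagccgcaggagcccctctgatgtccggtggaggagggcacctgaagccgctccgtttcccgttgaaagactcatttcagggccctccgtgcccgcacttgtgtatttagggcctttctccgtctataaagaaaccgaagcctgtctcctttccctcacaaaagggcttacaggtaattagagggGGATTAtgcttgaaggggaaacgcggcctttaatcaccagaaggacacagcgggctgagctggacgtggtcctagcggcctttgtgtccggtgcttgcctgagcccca
The Crx promoter held 2 matches and the others 1 each. The core stood in 39 of 245 promoter-matched genes with a gap of at least 2 log2 (15.9%), in 166 of 1990 higher genes (8.34%) and in 1396 of all 18305 genes with a promoter (7.63%). Among the 31 higher genes of the rod and cone lists with a promoter, 12 held it (38.7%). CAGATG, a hexamer bound by NEUROD1 and related factors, stood in 52 of the 245 genes with a gap of at least 2 log2 (21.2%), 294 of the 1990 higher genes (14.8%) and 3037 of all 18305 (16.6%). A match is a description of these letters in this window and no sign of binding.

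The summed level of the rod genes ranged over 2717 to 90838 RPM in retinal libraries, against 180.2 to 1278 RPM in the others. Of 42 genes for rod phototransduction and the outer segment, 28 were higher in every retinal library (66.7%), 20 of them under all 3 scalings, and 14 did not separate. Rbp3 (Entrez ID 19661; chromosome 14, 33954003 to 33964219), the retinoid carrier between photoreceptors and pigment epithelium, stood at 936, 4198 and 6274 RPM in retinal libraries, against 0, 2.85 and 13.0 RPM in the others. Abca4, the flippase that clears retinoid from disc membranes, stood at 66.6, 234 and 964 RPM in retinal libraries, against 0, 0.0515 and 0.963 RPM in the others. Both genes were lowest at P0 and highest at P10. Cdhr1, a cadherin at the base of the outer segment, stood at 162 ± 1.07 RPM at P0, 437 ± 31.9 at P4 without CD73, and 1287 ± 136, 1395 ± 55.7 and 2403 ± 102 with CD73 at P4, P6 and P10 (SD, n = 2 each). Aipl1, a chaperone of the rod phosphodiesterase, had a gap of 4.18, Rgs9, which ends the transducin signal, one of 3.67, and Rom1, a disc rim protein, one of 3.37.

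Cone genes separated in 12 of 14 cases (85.7%), 11 of them under all 3 scalings. Gnb3 (Entrez ID 14695; chromosome 6, 124834240 to 124840275), the beta subunit of cone transducin, stood at 598, 1318 and 1564 RPM in retinal libraries, against 0, 1.19 and 4.88 RPM in the others. Opn1sw, the short-wavelength cone opsin, stood at 68.9, 187 and 306 RPM in retinal libraries, against 0, 0 and 1.54 RPM in the others. Both were lowest at P0, present in every CD73+ library and free of overlap with the other lineages. Pde6h and Pde6c, subunits of the cone phosphodiesterase, had retinal medians of 113 and 14.9 RPM, and Pde6c was listed at 0 in all 16 others. Cngb3, a cone channel subunit, and Gnat2, the alpha subunit of cone transducin, had gaps of 2.57 and 2.21. The 2 that did not separate were Thrb and the middle-wavelength opsin gene Opn1mw, which had a retinal median of 0.236 RPM.

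Most genes of the synapse list and 10 of 18 excitability genes separated. Of 27 ribbon synapse genes, 21 were higher (77.8%), 18 of them under all 3 scalings. Sv2b, a synaptic vesicle protein, stood at 136, 266 and 369 RPM in retinal libraries, against 0, 0.354 and 0.899 RPM in the others. Egflam, which encodes pikachurin of the photoreceptor synapse, stood at 120.4, 420.1 and 518 RPM in retinal libraries, against 0, 0.379 and 2.59 RPM in the others. Snap25 and Syt1 of the vesicle fusion machinery both had gaps of 4.88, Syp of the vesicle membrane one of 4.79, and Cplx3, a complexin of ribbon synapses, belonged to the same list. Of 18 genes for cGMP, calcium and excitability, 10 were higher (55.6%), 9 of them under all 3 scalings, among them Atp2b2, a calcium pump of the plasma membrane (5.05 to 17.9 RPM in retinal libraries, at most 0.556 in the others).

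A wider neuronal set was shared by all stages. Of 43 genes of the neuronal cytoskeleton, membrane and vesicles, 25 were higher (58.1%), 21 under all 3 scalings, and of 19 neuronal RNA-binding proteins 12 were higher (63.2%), 9 under all 3 scalings. Ncam1, a neural adhesion molecule, stood at 222, 318 and 375 RPM in retinal libraries, against 0, 0.883 and 2.36 RPM in the others. Srrm4, which directs neuronal microexon splicing, stood at 151, 207 and 298 RPM in retinal libraries, against 0, 0.387 and 0.824 RPM in the others. Brsk2, a kinase of neuronal polarity, stood at 146, 198 and 255 RPM in retinal libraries, against 0, 0 and 0.723 RPM in the others. The retinal group means of these 3 genes spanned 0.58, 0.87 and 0.60 log2. A limma F-test between the 5 retinal groups gave them adjusted p = 0.0131, 0.000735 and 0.0148. With a span of at least 1 log2 also required, that test called 30 of 39 cytoskeleton and 10 of 15 RNA-binding genes tested. Rtn1, a reticulon of the endoplasmic reticulum, and Mtap2, which encodes a dendritic microtubule protein, had gaps of 5.77 and 4.44. Their retinal group means spanned 0.46 and 2.33 log2. Among those that did not separate were Stmn2, a growth cone protein, with a retinal median of 22.0 RPM and a highest other value of 123, and Gap43, another, with 12.2 and 33.2.

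Cilium genes were higher in 33 of 56 cases (58.9%), 22 of them under all 3 scalings. Mak, a kinase that limits the length of the photoreceptor cilium, stood at 73.1, 304 and 499 RPM in retinal libraries, against 0, 0.486 and 2.22 RPM in the others. Pcdh15, a protocadherin of the calyceal processes, and Ahi1, a transition zone protein, had gaps of 3.66 and 3.74. Bbs1, a BBSome subunit, stood at 27.2 to 158 RPM in retinal libraries and at most 5.24 RPM in the others.

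**Figure D3:**
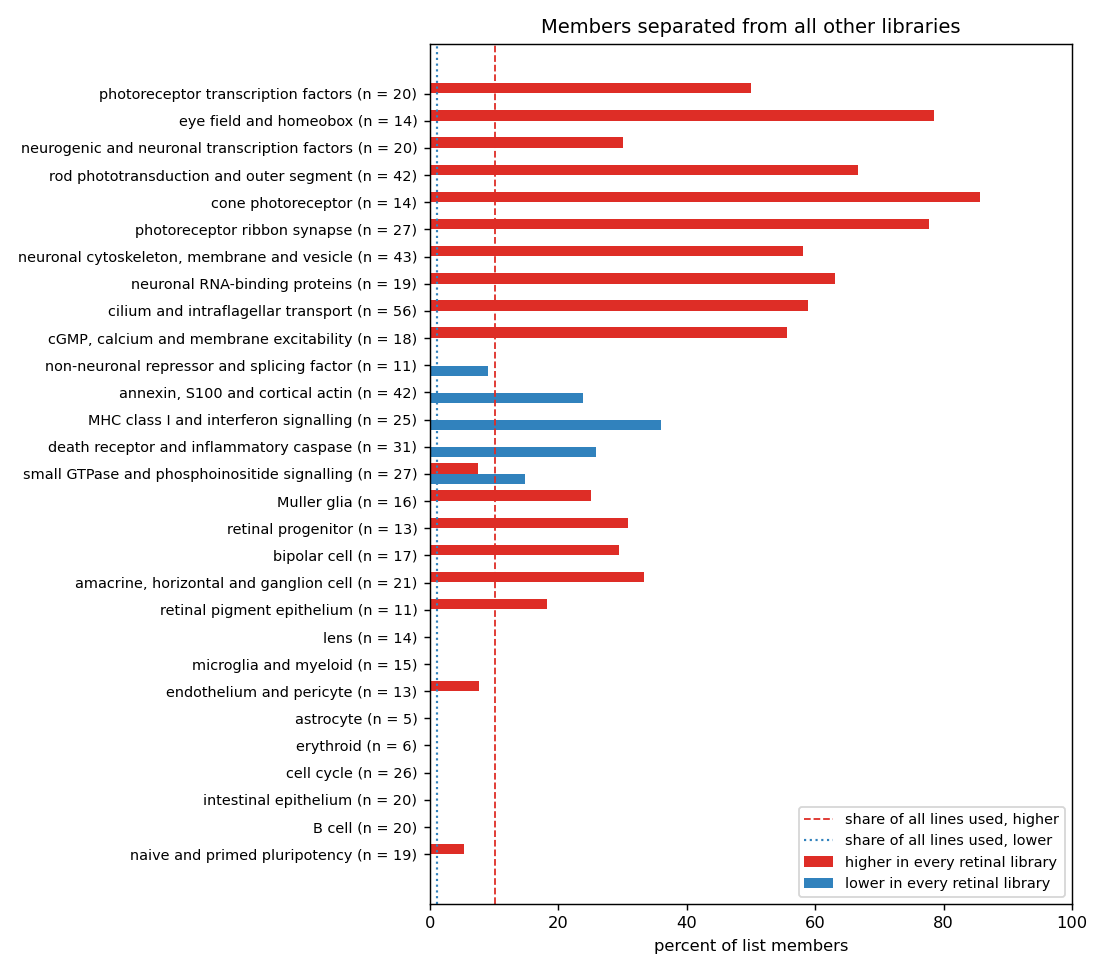
Share of each gene list, in percent of its members in the table (n in brackets), that was higher (red) or lower (blue) in every retinal library; the dashed and dotted lines give the shares over all lines used, 10.1% and 1.13%. The 10 lists of photoreceptor and neuronal genes at the top lie at or above 30% higher with none lower. The lens, microglia, astrocyte, erythroid, cell cycle, intestinal and B cell lists have no separated member. Of the 14131 expressed lines, 2444 were higher and 285 lower.

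The largest gaps also held genes outside these lists. Slc1a2, a glutamate transporter, stood at 341, 423 and 718 RPM in retinal libraries, against 0, 1.16 and 3.08 RPM in the others. Darc, the older name of the chemokine receptor gene Ackr1, stood at 106, 157 and 297 RPM in retinal libraries, against 0, 0 and 1.15 RPM in the others. Both were highest in P4_PRP_GFP+CD73- and overlapped with no other library. Cspg5, a neural proteoglycan, Wdr66, a protein of cilia and flagella, Zfp536, a zinc finger repressor, Lingo3, Vash1, which encodes an angiogenesis inhibitor and tubulin carboxypeptidase, and Igsf21, a synaptic adhesion gene, had gaps of 5.74, 5.73, 5.69, 5.51, 5.49 and 5.45. The lines A930011O12Rik, 4930583H14Rik and 2610100L16Rik had gaps of 5.94, 5.89 and 5.36. Of all 2546 higher genes, 2381 were annotated as protein-coding and 107 as long non-coding.

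Of 643 lines named as microRNAs, a list chosen after seeing the data, 4 were higher (0.622%, against 10.1% of all lines). Of the same 643 lines, 510 were listed at 0 in all retinal libraries. The Mir9-2 line stood at 32.3, 81.7 and 165 RPM in retinal libraries, against 0, 0 and 0.482 RPM in the others. Reads of these libraries start from poly(A), so they speak of the transcript over the locus and not of mature miR-9. The mature sequences (RefSeq, GRCm38.p6, chromosome 13) are shown with the seed, bases 2 to 8, in capitals, because miR-9 is a neuronal microRNA and its locus had the widest gap of the 4.
miR-9-5p: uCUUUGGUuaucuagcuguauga
miR-9-3p: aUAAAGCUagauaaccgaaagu
Mir135a-2, Mir331 and Mirlet7d had gaps of 0.67, 0.60 and 0.25. All 4 lines were also higher after median-of-ratios scaling, and 2 of them after quantile normalization.

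Genes lower in every retinal library were fewer and had smaller gaps, of at least 1 log2 for 77 and of at least 3 for 3. Without the P0 libraries 450 genes were lower. Those with a gap of at least 3 were Bcl3, Pycard and Ripk3. Bcl3 (Entrez ID 12051; chromosome 7, 19808462 to 19822824), an IkB family coactivator of NF-kB, stood at 0, 0.0481 and 0.519 RPM in retinal libraries, against 14.2, 35.0 and 71.5 RPM in the others. Pycard (Entrez ID 66824; chromosome 7, 127991373 to 127993867), the adaptor of inflammasomes, stood at 0.260, 3.27 and 5.06 RPM in retinal libraries, against 56.6, 111 and 1427 RPM in the others. Ripk3 (Entrez ID 56532; chromosome 14, 55784995 to 55788857), the kinase of necroptosis, stood at 0, 0.277 and 0.732 RPM in retinal libraries, against 15.3, 43.9 and 75.3 RPM in the others. All 3 were present in every library of the other lineages, and the gaps were 3.32, 3.25 and 3.24. Other wide gaps were those of Acadl, a mitochondrial acyl-CoA dehydrogenase (2.71), Plac8 (2.59), Itpr3, a calcium release channel (2.28), Zc3hav1, an antiviral zinc finger protein (2.19), and Ccnd2, the D-type cyclin 2 (2.06). Ifi35, an interferon-induced gene, Pqlc3, Arap2, a regulator of small GTPases, and Plp2 had gaps of 2.43, 2.43, 2.07 and 2.00.

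**Figure D4:**
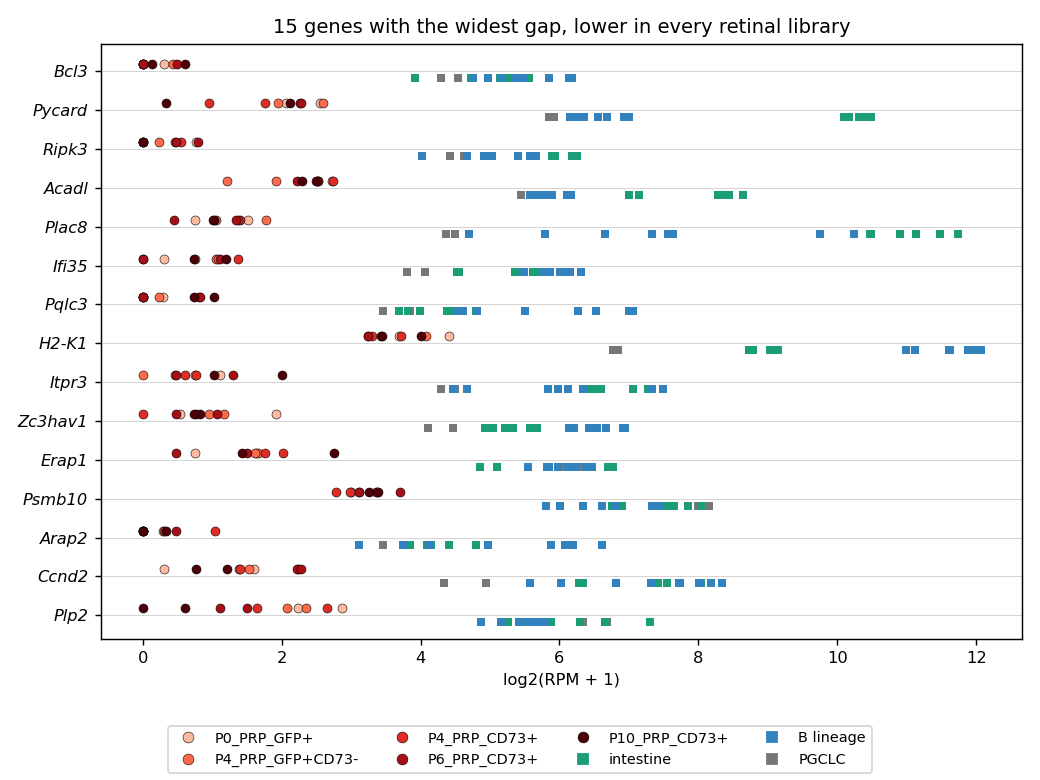
Levels in all 26 libraries, log2(RPM + 1) on the horizontal axis, of the 15 genes with the widest gap among those lower in every retinal library. Circles above each line are the 10 retinal libraries and squares below are the other 16; the gap runs between 2.00 for Plp2 and 3.32 for Bcl3.

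Of 25 genes of MHC class I presentation and interferon signalling, 9 were lower in every retinal library (36%, against 1.13% of all lines). None was higher, and the 9 held under all 3 scalings. All 25 were among the 14131 expressed lines, of which 285 were lower. The median difference over the list was -2.60 log2, against 0.64 over the expressed lines and 0 over all. H2-K1, a classical class I heavy chain, stood at 8.45, 10.9 and 20.2 RPM in retinal libraries, against 108, 1299 and 4278 RPM in the others. Psmb10, a catalytic subunit of the immunoproteasome, stood at 5.89 to 12 RPM, with a median of 8.13 RPM, in retinal libraries, against 55.0, 164 and 284 RPM in the others. Among the other lineages the germ cell-like cells had the lowest H2-K1 and PB the lowest Psmb10, and no library overlapped the retina. Tap1, a subunit of the peptide transporter, stood at 0, 0.351 and 2.06 RPM in retinal libraries, against 5.87, 126 and 323 RPM in the others. Psmb9, Irf1, an interferon-induced factor, and Stat6, which carries the IL-4 signal, had gaps of 1.09, 1.55 and 1.06, and Psmb8, H2-D1 and Jak3 were the remaining members. Reads of class I genes can be shared between near-identical copies, so their single values are uncertain. B2m, the class I light chain, did not separate, with a retinal median of 32.4 RPM and a lowest other value of 78.6 RPM.

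Erap1, which trims peptides for class I molecules, was lower too, at 0.387, 2.08 and 5.71 RPM in retinal libraries and 28.1, 71.8 and 108 RPM in the others. The interferon-stimulated response element, taken as GAAA and GAAA with any 2 bases between them and searched on both strands, stood in 23 of 203 lower genes with a promoter (11.3%), in 56 of 1990 higher genes (2.81%) and in 721 of all 18305 (3.94%). Matches to the 3 motifs overlapped each other in 7 of 22101 promoters. Promoters of lower genes are shown because they hold the element, which is in capitals; in Erap1 it lies on the opposite strand and in Oas1a 2 matches overlap.
Erap1 (chr13:74639603-74639902, plus strand): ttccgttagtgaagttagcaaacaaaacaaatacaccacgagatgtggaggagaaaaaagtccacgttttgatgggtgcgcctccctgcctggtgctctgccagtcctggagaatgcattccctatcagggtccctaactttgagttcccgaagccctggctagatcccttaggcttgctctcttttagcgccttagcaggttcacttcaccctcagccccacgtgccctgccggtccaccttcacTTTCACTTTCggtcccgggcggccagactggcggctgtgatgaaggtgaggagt
Oas1a (chr5:120907476-120907775, minus strand): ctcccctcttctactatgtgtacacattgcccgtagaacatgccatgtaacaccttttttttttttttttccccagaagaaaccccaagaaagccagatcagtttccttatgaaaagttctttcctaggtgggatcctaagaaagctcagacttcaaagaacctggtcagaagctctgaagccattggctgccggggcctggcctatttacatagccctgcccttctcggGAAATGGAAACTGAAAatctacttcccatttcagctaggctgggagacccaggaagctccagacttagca

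Death receptor and inflammatory caspase genes were lower in 8 of 31 cases (25.8%), all 8 under all 3 scalings, and none was higher. Casp8, the initiator caspase of death receptors, stood at 0.357, 1.28 and 5.44 RPM in retinal libraries, against 6.67, 64.7 and 88.5 RPM in the others. Bid, which links that caspase to mitochondria, stood at 2.69, 6.93 and 11.2 RPM in retinal libraries, against 30.3, 52.9 and 138 RPM in the others. Birc3, an inhibitor of apoptosis, was lower as well (0.96), so the list's lower members include genes that promote and genes that restrain cell death. Fas, Tnfrsf1b, Fadd, Ripk3 and Nfkb2 were the other members.

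Annexin, S100 and cortical actin genes were lower in 10 of 42 cases (23.8%), all 10 under all 3 scalings. S100a10, the partner of annexin A2, stood at 11.2, 15.9 and 32.3 RPM in retinal libraries, against 125, 537 and 1296 RPM in the others. Arpc1b, a subunit of the actin-nucleating Arp2/3 complex, stood at 1.87, 5.45 and 18.4 RPM in retinal libraries, against 75.4, 335 and 636 RPM in the others. Ezr, which ties actin to the membrane, stood at 10.1, 20.4 and 40.8 RPM in retinal libraries, against 93.3, 233 and 447 RPM in the others. S100a11, Anxa11 and S100a13 had gaps of 1.65, 1.38 and 0.99, and Anxa4, Anxa7, Capg and Vasp were the other members. Anxa2 had a retinal median of 6.49 RPM and an other median of 48.1 RPM and did not separate, since its lowest other value was 0.469 RPM.

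Of 27 genes of small GTPase and phosphoinositide signalling, 4 were lower (14.8%), all 4 under all 3 scalings. Rhog and Rhoa, small GTPases, had gaps of 1.18 and 0.32, and Ptpn6, a phosphatase of blood cells, and Plcg2, a phospholipase of blood cells, had gaps of 1.14 and 1.02. Pik3r1, a regulatory subunit of phosphoinositide 3-kinase, was higher, with a gap of 0.72, and Plcg1 was higher by 0.04 as deposited but overlapped after both scalings (-0.21 and -0.50). Of 11 non-neuronal repressors and splicing factors, 1 was lower (9.09%, against 1.13% of all lines). It was Rod1, the older name of the polypyrimidine tract binding protein gene Ptbp3. Rod1 stood at 9.42, 31.9 and 39.6 RPM in retinal libraries and 57.1, 179 and 263 RPM in the others. Rest, the repressor of neuronal genes, and Ptbp1 did not separate, with retinal medians of 7.51 and 131 RPM and lowest other values of 10.4 and 125 RPM.

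The 25 genes absent only in retina were all annotated as protein-coding. Htatip2, an oxidoreductase gene, was listed at 0 in all 10 retinal libraries and stood at 2.91, 18.5 and 23.5 RPM in the others. Car13, a cytosolic carbonic anhydrase, stood at 0, 0.230 and 0.387 RPM in retinal libraries, against 3.44, 45.1 and 80.0 RPM in the others. Slc35f2, a solute carrier, stood at 0, 0.285 and 0.779 RPM in retinal libraries, against 2.84, 33.2 and 90.2 RPM in the others. Interferon-induced genes were among them: Rtp4 stood at 0, 0 and 0.505 RPM in retinal libraries and 1.92, 14.5 and 56.4 RPM in the others, and Ifit1, Samd9l, Oas1a and Oas1g were further members, the last pair near-identical copies that can share reads. Receptor and signalling genes were Fas, Tnfrsf1b, Sigirr, Jak3, Bcl3, Ripk3 and Trim21. Genes of epithelial junctions and the actin cortex were Pkp3, a plakophilin, Lmo7, Arhgap8 and Capn1, a calpain. Gstt3, Kcnk5, Rab19, Stambpl1, H2-M3 and Fam176b, now named Eva1b, completed the set. For 3 of the 25 every other library held at least 5 RPM, and 54 genes met the rule when the germ cell-like cells were left out. For several members the highest retinal and lowest other values lay less than 1 RPM apart, a difference not detectable here. They were 0.794 and 1.17 RPM for Samd9l, 0.869 and 1.25 for Tnfrsf1b, 0.932 and 1.22 for Fam176b, and 0.990 and 1.42 for Trim21. Their absence only in retina thus rests on few reads.

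**Figure D5:**
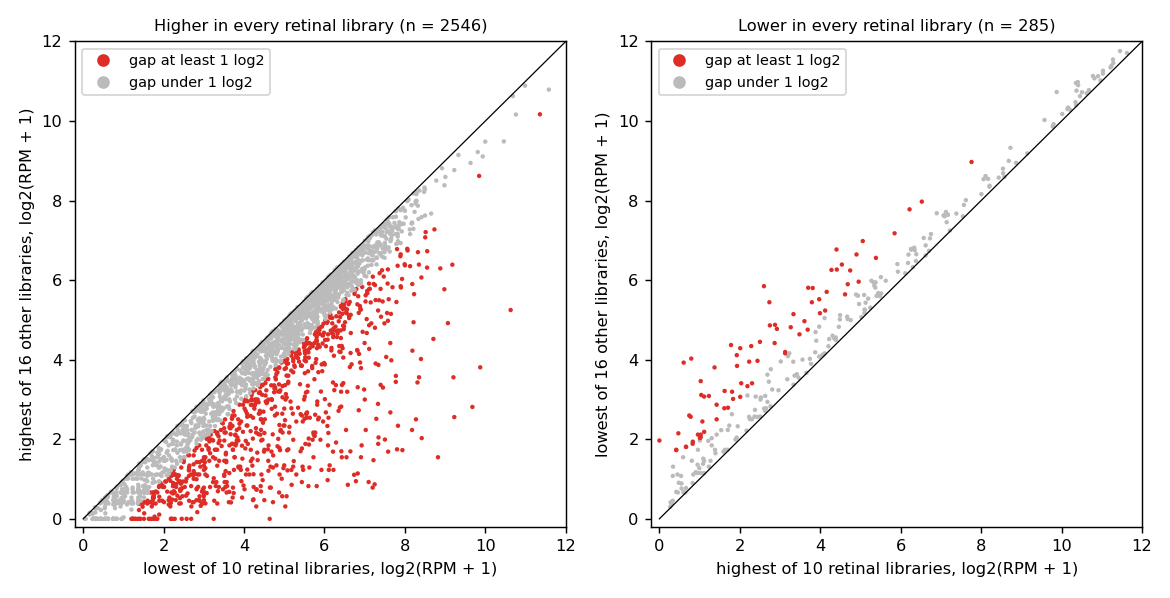
Separated genes by their limiting values in log2(RPM + 1): left, the lowest retinal against the highest other value of 2546 higher genes; right, the highest retinal against the lowest other value of 285 lower genes. Distance from the diagonal is the gap, and the 811 and 77 genes with a gap of at least 1 are in red.

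At the threshold, Golga7, Tm2d1 and Kctd13 were just inside the higher class, with gaps of 0.000883, 0.00133 and 0.00167 log2. Kctd13 had a lowest retinal value of 9.65 RPM and a highest other value of 9.63 RPM. Just outside were 1600027N09Rik, with a gap of -0.000147 log2, and Pcdhgb7 and Pcdhga11, clustered protocadherin genes whose lowest retinal values were tiny fractions of a read although their retinal medians were 7.24 and 8.54 RPM. On the lower side Gm5566, Uchl4 and Eif5a were just inside, with gaps of 0.00165, 0.0158 and 0.0169 log2. Mrps15, with a highest retinal value of 49.9 RPM and a lowest other value of 49.9 RPM, Blvrb and Cr1l were just outside. Among higher genes the limiting retinal group was P0 in 1174 and P10 in 696, and the limiting other group was d2 PGCLC in 852 and B cell in 624.

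Separation did not mean a flat level. A limma F-test between the 5 retinal groups, which does not use the other lineages, called 1061 of 2444 tested higher genes (43.4%), against 4944 of 11704 genes tested in all (42.2%), and 87 of 168 tested lower genes. A call needed an adjusted p under 0.05 and group means that span at least 1 log2. Of the 2546 higher genes, 1356 had retinal group means within 1 log2 of each other and 201 spanned at least 3. These spans were not counted over all genes, and the share called by the F-test was near that of all genes. The photoreceptor and neuronal lists held more calls. Of their tested members, separated or not, 42 of 42 rod, 16 of 18 photoreceptor factor and 17 of 18 neurogenic genes were called. So were 11 of 13 eye field, 10 of 13 cone and 21 of 26 synapse genes. On the class I and interferon list 6 of 16 were called. Between the P4 gates 2282 of the higher genes (89.6%) and 271 of the 285 lower genes (95.1%) differed by under 1 log2. The share over all genes was not computed, and the rule itself asks for high or low values in both gates. These shares thus do not show whether the separated genes differ less between gates than other genes. Rorb stood at 716 ± 118 RPM at P0, 724 ± 68.5 at P4 without CD73, and 521 ± 42.8, 511 ± 14.7 and 459 ± 10.4 with CD73 at P4, P6 and P10 (SD, n = 2 each). Vax2 stood at 45.7 ± 12.5 RPM at P0, 54.4 ± 8.71 at P4 without CD73, and 42.6 ± 15.5, 46.7 ± 5.87 and 55.0 ± 5.95 with CD73 at P4, P6 and P10 (SD, n = 2 each). Rorb group means spanned 0.65 log2 (limma adjusted p = 0.00137) and those of Vax2 0.41 log2 (adjusted p = 0.505). Nrl spanned 4.33 log2 (limma adjusted p = 4.7e-12) and was above every other library at P0 too. All 25 genes of the widest gaps were tested and 16 were called different between retinal groups. On the lower side 4 of the 15 reached the level for this test, and 1 of the 4 was called.

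A related question was put as a test over all genes. Each of the 5 retinal groups was set against the mean of the groups of each of the 3 other lineages. The largest of the 15 p-values (limma, Benjamini-Hochberg adjusted) had to be under 0.05. Each of the 15 estimated differences also had to be at least 1 log2 in the same direction, a limit the p-values did not test. A gene could thus be called while it overlapped a single group. The test called 1697 of 14131 genes higher (12%) and 242 lower (1.71%). Of the genes called higher, 1512 were also separated (89.1%), or 59.4% of the separated ones; of those called lower, 182 were (75.2%), or 63.9% of the separated ones. Of the photoreceptor transcription factors, 9 of 20 were called higher and 1 lower, namely Bhlhe40, a repressor of the circadian clock, which the separation rule did not pick. Of the neurogenic factors 8 of 18 were called higher, and 6 after either scaling. Called higher too were 10 of 13 tested eye field genes, 25 of 42 rod genes, 10 of 13 cone genes and 19 of 26 synapse genes. Called lower were 9 of 25 class I and interferon genes and 11 of 42 annexin, S100 and cortical actin genes. The fit reads the same libraries as the separation rule and is no independent evidence for it. Without d2 PGCLC it called 2741 higher and 445 lower. The calls under all 3 scalings were 846 higher and 234 lower.

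Genes of other retinal cells were found among the higher ones. Of the Muller glia list 4 of 16 members were higher (25%) and of the bipolar list 5 of 17 (29.4%). Of the amacrine, horizontal and ganglion list 7 of 21 were (33.3%), against 10.1% of all lines. Rlbp1, a retinoid binding protein of glia and pigment epithelium, stood at 11.4, 163 and 294 RPM in retinal libraries, against 0, 0 and 0.600 RPM in the others. Pcp2 and Cabp5, bipolar genes, had retinal medians of 25.5 and 14.4 RPM and gaps of 1.86 and 2.42. Both were highest in P10_PRP_CD73+, Pcp2 at 160 and 176 RPM and Cabp5 at 107 and 81.4 RPM. In the other retinal libraries they reached at most 36.2 and 24.0 RPM. Gad2, an enzyme of inhibitory amacrine cells, stood at 1.68, 19.5 and 39.7 RPM in retinal libraries, against 0, 0.0302 and 0.309 RPM in the others. Its 2 highest libraries were those at P0 and its lowest was at P10. Tfap2b, an amacrine factor, had a gap of 0.02 as deposited that became an overlap after both scalings (-0.45 and -1.21). The glia list summed to 1076 to 2282 RPM in retinal libraries and 118 to 1558 RPM in the others. The bipolar list summed to 467 to 2253 RPM in retinal libraries and 18 to 153 RPM in the others, and the amacrine, horizontal and ganglion list to 387 to 579 RPM and 8.20 to 214 RPM. These lists share Pax6 and other members with the eye field list. Aqp4 (glia), Trpm1 (bipolar) and Pou4f2 (ganglion) had retinal medians of 0.0893, 0.695 and 0 RPM. These genes were picked after their values were seen and do not stand for their lists. Among the 4 higher members of the glia list, Crym reached 530 RPM in P4_PRP_CD73+ replicate 2 and Dkk3 reached 619 RPM in P0_PRP_GFP+ replicate 2. None of 15 microglial genes was separated, and they summed to 25 to 474 RPM in retinal libraries and 4.66 to 3146 RPM in the others, with the highest retinal sum in P4_PRP_GFP+CD73- replicate 2. Of the 11 genes of the pigment epithelium Tyrp1 and Rgr were higher (18.2%). This list summed to 9.84 to 37.0 RPM in retinal libraries and 2.2 to 361 RPM in the others. Of 13 retinal progenitor genes 4 were higher (30.8%), all members of the eye field list. The progenitor list summed to 648 to 2952 RPM in retinal libraries with its highest at P0. None of 26 cell cycle genes was separated, with sums of 419 to 5315 RPM in retinal libraries and 1435 to 6325 RPM in the others. The part of such cells in the results was not tested. Kdr, a vascular growth factor receptor, was the 1 higher member of 13 endothelial genes (7.69%). It stood at 15.5 to 162 RPM in retinal libraries, while Cdh5, Tek and Tie1 had retinal medians of 0 RPM.

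Genome positions are given as a description. The median span from start to end was 28.3 kb for higher genes, 12.5 kb for lower genes and 22.5 kb for all tested lines with a position. On the X chromosome lay 2.84% of the higher, 6.96% of the lower and 3.47% of all tested genes.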

How the data were processed

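The 26 libraries were 3' RNA-seq of sorted mouse cells, amplified from 1 ng of RNA, with 2 replicates in each of 13 groups per the labels. The authors deposited 1 table, whose values are an expression signal in RPM, per the file headers. The submitters' processing notes list Bowtie 1.0.1, TopHat 1.4.1, cutadapt 1.11, Cufflinks 2.2.0 and build mm10; their steps, and the counting of shared reads, are not given in the sources used here. Libraries held 1.72 to 6.04 M reads, judged by the step between low values; 82.9 to 91.3% of values up to 20.5 reads were whole, with a tolerance of 0.02 reads, so the signal was not treated as counts. Of 26310 lines, 1072 gene lines and 92 spike-in lines held values moved against the header and were left out. The lines used held 650799 to 978020 RPM per library, lowest in PB.

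Lines were compared as log2(RPM + 1) in Python 3.11.15 with pandas 2.3.3, and 24062 of 25146 IDs matched RefSeq (GRCm38.p6). Tests used limma 3.58.1 in R 4.3.3 over 13 groups (the 10 retinal libraries alone for differences between stages), keeping genes that reached 5 RPM in 2 samples or more, two-sided, and were tested on simulated data. Named genes were the 25 and 15 widest gaps, up to 6 separated genes per list (all for transcription factor lists), the marker and sorted genes and the 3 nearest the threshold on either side; non-separated list members, absent genes and genes beyond these were named after their values were seen. A few genes that these rules or lists hold are counted but not reported here by name. The members and lists were chosen with earlier results of these data known. Alternatives were other scalings, pseudocounts, filters, thresholds and leaving out libraries or groups.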

Additional observations from a re-analysis of the deposited data

Results flagged for a closer look

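Arap2 in P4_PRP_CD73+ replicate 2 stood apart from the other 9 retinal libraries: its 1.06 RPM was the highest, the next was 0.387 RPM, and the gap to the nearest library on the log2(RPM + 1) scale was 0.547 of the whole range, above the critical value of Dixon's test for 10 samples. The 10 retinal libraries come from 5 groups, 42 genes were screened, and chance marks about 1 in 20 such sets.

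Among the lines whose values were moved against the header, set back under it, 39 of 1072 were higher in every retinal library (3.64%) and 11 were lower. The widest gaps on the higher side were 3.01 log2 for LOC100861967 (lowest retinal value 55.5 RPM, highest other value 6.00 RPM), 2.95 for LOC100862305, 2.09 for LOC100862121, 1.89 for LOC100862384 and 1.46 for Gm20272. For these 5, 14 of the 16 other libraries had a value.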

How the results depend on the processing

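The counts rested on scaling and on the groups held. After median-of-ratios scaling 1626 genes were higher, 723 lower and 43 absent, and after quantile normalization 1382, 739 and 64. A gap of at least 1 log2 left 811 higher and 77 lower. Leaving out P0 gave 450 lower genes; leaving out d2 PGCLC gave 54 absent genes. Absence as 0 in every retinal library left 1 gene, and at least 5 RPM in every other library left 3. Leaving out each group of the intestine or B lineage, chosen after seeing the data, kept the 3 separation counts within 1.5 times. The limma calls higher and lower were 1072 and 437 after median-of-ratios scaling, 880 and 511 after quantile normalization, 3157 and 627 with 3 contrasts of the retinal mean, 2741 and 445 without d2 PGCLC, and 138 lower with a pseudocount of 5. Without 1 library in turn, the higher genes numbered 2550 to 2768, the lower 285 to 342, the absent 25 to 32, the limma calls 1527 to 1703 higher and 211 to 243 lower, and the genes that differ between retinal groups 4409 to 4937. Of the named genes, 5 lost their gap under both scalings: Plcg1 (-0.21 and -0.50), Tfap2b (-0.45 and -1.21), Golga7 (-0.55 and -0.15), Tm2d1 (-0.57 and -0.63) and Kctd13 (-0.45 and -0.83); the cause was not tested. The replicate numbers did not pair the samples: over 78 pairs of groups the correlation of deviations was -0.057 to 0.235, over 0.1 in 2. With a replicate block limma called 1699 higher and 241 lower, and 4977 genes differed between retinal groups. Depth limits statements under about 1 RPM.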
